A study of Xenopus laevis with 8 samples.

Results

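The comparison described here was that of M/Z with +/Z *Xenopus laevis* embryos at stage 10.5, a gastrula stage. It rested on 4 of the 8 libraries of the study, 2 of each genotype, chosen by the stage and the genotype in their labels. M/Z (maternal-zygotic) embryos were laid by *wnt11b* mutant females and +/Z embryos by wild-type females, and mutant sperm fertilised both. All 4 pools therefore carried a mutant paternal allele, and the mother and the genotype of the embryo differed together. The mutation is a small frameshifting deletion in *wnt11b.L*, made by CRISPR/Cas9 in the inbred J strain and passed on by 1 founder female. Each library held RNA from 3 pooled whole embryos. The females and clutches behind the pools are not given in the sources used here, so p-values measure the spread between pools. The other 4 libraries were stage 9 blastulae of the same 2 kinds of cross. They gave the starting point of each gene's developmental change and added to the estimate of the spread.

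Wnt11b is a secreted Wnt ligand whose RNA is stored in the vegetal part of the *Xenopus* egg. In the early embryo, stabilised β-catenin on the future dorsal side switches on genes such as *siamois* and *nodal3*, and the dorsal lip that forms there becomes the Spemann organiser. The organiser secretes Chordin, Noggin, Cerberus and other antagonists of BMP and Wnt ligands, while BMP signalling on the opposite side maintains *ventx* genes and its own feedback inhibitors. Over the same hours the RNAs stored in the egg are degraded and replaced by transcripts of the embryo's own genome.

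The deposited values were expected counts, the number of reads that *RSEM* assigned to each gene. Library totals were 36761707 and 32146998 in M/Z replicates 1 and 2, and 30840506 and 25708995 in +/Z replicates 1 and 2. Levels below are CPM (counts scaled to a common library size) after TMM scaling, which are not corrected for transcript length and are compared only between libraries. Of 49086 genes listed, 25448 were tested with *edgeR*'s quasi-likelihood test, fitted to all 8 libraries, and a gene passed at an adjusted p under 0.05 (Benjamini-Hochberg over all genes tested). Replicates differed by a median of 0.372 (absolute log2) for M/Z and 0.365 for +/Z pools. The biological coefficient of variation was 0.229 over the 8 libraries and 0.287 over the 4 of stage 10.5. Each call was therefore repeated with the 4 stage 10.5 libraries fitted alone and with each of these 4 left out in turn. A gene called in the same direction every time is said below to have passed in all 6 fits. *X. laevis* is allotetraploid, with many genes in .L and .S copies, and the division of reads between near-identical copies is uncertain. In whole embryos, fewer cells of a type and less RNA per cell cannot be told apart.

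The libraries had gastrula levels of their marker genes. *t.L*, which encodes Brachyury, was at 1.19 and 1.87 CPM in the +/Z pools of stage 9 and at 199 and 111 CPM in those of stage 10.5. The endoderm gene *mixer.L* went from 6.48 and 3.89 CPM to 456 and 419 CPM in the same pools. Of 31 listed gene copies that mark blood or ovarian follicle cells, 4 were tested, and *amh.S*, described below, was the one that passed.

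The targeted gene did not pass the test. *wnt11b.L* stood at 55.2 and 40.3 CPM in M/Z replicates 1 and 2 and at 72.0 and 60.5 CPM in +/Z replicates 1 and 2. Both M/Z values lay below both +/Z values, as for 27.1% of all genes tested. The log2 fold change was -0.47 (SE, the standard error, 0.23, and *edgeR* adjusted p = 0.20). Counts per gene do not show the deletion, so the genotypes of the pools were not checked from these data.

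Differences between the genotypes were widespread and about as often upward as downward. Of the 25448 genes tested, 3325 (13.1%) passed, 1700 (6.68%) of them higher and 1625 (6.39%) lower in M/Z embryos. The difference exceeded 2-fold for 2489 of these genes and 8-fold for 843, of which 422 were higher and 421 lower in M/Z. With library totals in place of TMM scaling, 2658 were higher and 1110 lower, because the log2 fold changes of all genes moved up by 0.19 (median). The number of calls also depended on single pools. It was 5227 without M/Z replicate 1, 1520 without M/Z replicate 2, 3571 without +/Z replicate 1 and 1848 without +/Z replicate 2. With the 4 stage 10.5 libraries fitted alone, 1218 of 23997 genes passed (5.08%), 603 (2.51%) higher and 615 (2.56%) lower. Of these, 1216 (4.78% of the 25448) had passed in the 8-library fit too, 603 (2.37%) higher and 613 (2.41%) lower. In all 6 fits, 1020 genes passed (4.01%), 535 (2.1%) higher and 485 (1.91%) lower in M/Z. These 1020 genes were 30.7% of the 3325 that passed in the 8-library fit.

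**Figure D1:**
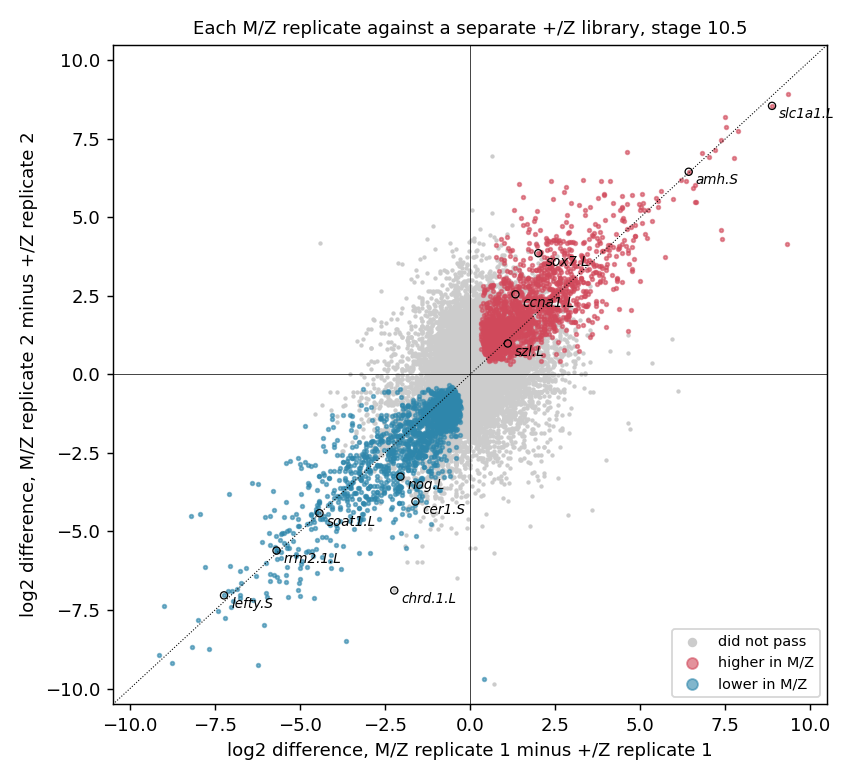
Each point is 1 of 25448 genes, placed by its log2 difference between M/Z replicate 1 and +/Z replicate 1 (horizontal) and between M/Z replicate 2 and +/Z replicate 2 (vertical), so the axes share no library. Genes that passed (1700 higher in red, 1625 lower in blue) lie in the upper right and lower left quadrants for the most part, *slc1a1.L*, *rrm2.1.L* and *soat1.L* lie near the dotted line of equal difference, and the dorsal genes *cer1.S*, *nog.L* and *chrd.1.L* lie below it.

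The M/Z replicates differed from each other in a way that followed developmental change. Among the 657 genes that rose over 16-fold from stage 9 to stage 10.5 in +/Z embryos, 94.1% were higher in M/Z replicate 1 than in replicate 2, with a median log2 difference of 0.97. Among the 1399 genes that fell over 4-fold in +/Z embryos, 90.5% were higher in M/Z replicate 2, with a median log2 difference of -0.94. The 8412 genes that stayed within 1.4-fold had a median of 0.01 between the M/Z replicates. The +/Z replicates differed far less along the same bins, with medians of 0.30, -0.14 and -0.06 for the same 3 groups of genes.

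**Figure D2:**
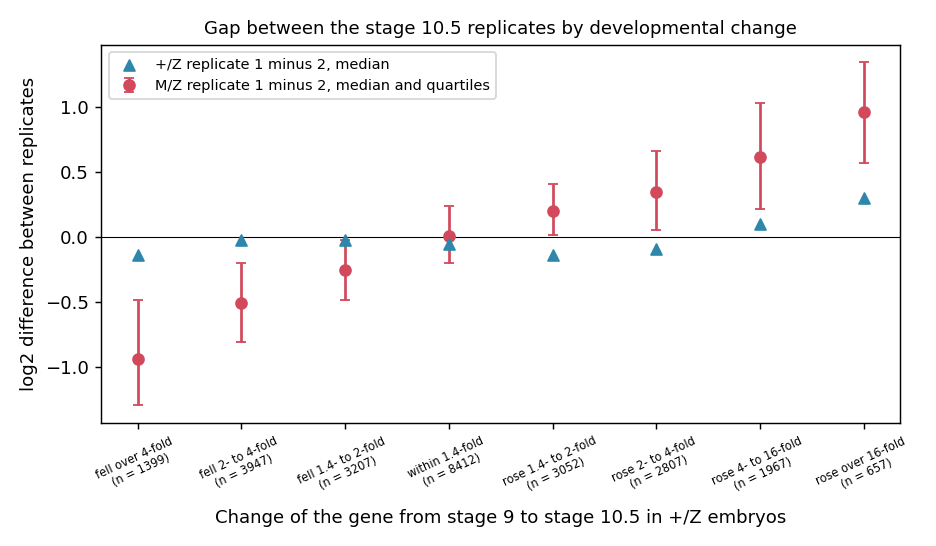
Genes were binned by their change from stage 9 to stage 10.5 in +/Z embryos (horizontal, number of genes in each bin), and the log2 difference between replicates 1 and 2 at stage 10.5 is plotted (vertical). Red points and bars give the median and quartiles for M/Z embryos, which go from -0.94 to 0.97, and blue triangles the median for +/Z embryos, which goes from -0.14 to 0.30.

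A single number for progress was read from the 500 genes with the largest change in +/Z replicate 1, by setting each M/Z pool against +/Z replicate 2. On this scale, where 100% is the full change of +/Z embryos from stage 9 to stage 10.5, M/Z replicate 1 stood at 102% and M/Z replicate 2 at 84.2%. With the +/Z replicates exchanged, the values were 93.9% and 75.1%. Replicate 2 lagged more on falling genes, at 71.9% and 69.0% of the change with either +/Z replicate, and replicate 1 stood at 98.7% and 96.1% there. M/Z replicate 2 was thus the less advanced of the M/Z pools on both scales, whereas replicate 1 lay above or below the full change depending on the +/Z pool. There were 2 pools of each genotype, so no test was made.

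The genes that differed most between the M/Z replicates were examined among those that were alike in the +/Z pools. Among 9460 genes with at least 10 CPM in an M/Z pool and a ratio under 1.5 between the +/Z pools, 145 were more than 2-fold higher in M/Z replicate 1 and 295 in replicate 2. The 5 largest ratios toward replicate 1 belonged to 3 entries of *chordin*, to *cer1.S* and to *foxd4l1.1.S*, which encodes a forkhead factor of the early neural plate. *chrd.1.L* was at 29.2 CPM in M/Z replicate 1 and 1.02 CPM in replicate 2, against 137 and 120 CPM in +/Z replicates 1 and 2. *chrd.2.L* was at 42.9 and 1.97 CPM against 127 and 124 CPM. Sequences of these entries were not compared, so the split of reads among them is uncertain. In each of them both M/Z pools lay below both +/Z pools, as for 27.1% of all genes tested. That M/Z replicate 2 was the lower M/Z pool follows from the way these genes were chosen.

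Toward M/Z replicate 2, the 5 largest ratios belonged to *btg3.S*, *foxi1.S*, *cebpa.S*, *ikzf2.L* and *sun1.S*. *sun1.S*, for a protein of the inner nuclear membrane, stood at 12.6 and 48.0 CPM in the M/Z pools and 10.01 and 11.6 CPM in the +/Z pools, down from 99.9 and 111 CPM in the +/Z pools of stage 9. *btg3.S*, for an antiproliferative protein, stood at 2.54 and 14.3 CPM in M/Z and 2.83 and 3.58 CPM in +/Z embryos. M/Z replicate 1 was thus near the +/Z level for both genes and replicate 2 was not. *foxi1.S*, a forkhead gene of the ectoderm, did not fall in +/Z embryos. It was at 4.87 and 6.11 CPM there at stage 9 and at 5.01 and 5.4 CPM at stage 10.5, against 2.54 and 11.2 CPM in M/Z replicates 1 and 2. None of these 5 genes passed, but *sun1.S* did with library totals, and *cebpa.S* and *ikzf2.L* did with *DESeq2* in place of *edgeR*. That M/Z replicate 2 was the higher M/Z pool follows from the way these genes were chosen. A fit without M/Z replicate 1 keeps only that pool for M/Z, so its calls cannot serve as a separate test of these genes.

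Some organiser genes were lower in M/Z embryos, and most copies had their lowest level in M/Z replicate 2. Of 24 gene copies in the list of organiser transcription factors, 23 were tested. In M/Z, 5 were lower (*foxa4.S*, *gsc.L*, *gsc.S*, *lhx1.S* and *otx2.S*) and 0 higher, 21.7% lower against 6.39% of all genes, but 0 of these 5 passed in all 6 fits. The median log2 fold change over the list was -1.02, beside 0.02 over all genes tested. The list's median difference from the +/Z mean was -0.56 in M/Z replicate 1 and -1.71 in replicate 2. M/Z replicate 2 was the lowest of the 4 pools for 18 of the 23 copies (78.3%), against 29.7% of all genes tested. Members of this and the later lists were chosen with earlier results of these data known. Shares set beside those of all genes are therefore descriptions only.

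*goosecoid*, a homeobox gene of the dorsal lip, illustrates the order of the pools. *gsc.L* stood at 28.1 and 8.38 CPM in M/Z replicates 1 and 2 and at 47.8 and 81.5 CPM in +/Z replicates 1 and 2. *gsc.S* stood at 25.7 and 8.44 CPM in M/Z and 39.3 and 71.8 CPM in +/Z embryos. For both copies the genotypes did not overlap, as for 53.7% of all genes tested, and the M/Z pools were about 3-fold apart. Their log2 fold changes of -1.82 (standard error 0.53, adjusted p = 0.0497) and -1.70 (0.48, adjusted p = 0.046) passed narrowly in *edgeR*, and leaving out 1 pool moved them between -2.94 and -1.19 and between -2.71 and -1.09.

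*otx2.S*, for a homeodomain protein of the head organiser and anterior neural plate, stood at 23.1 and 4.53 CPM in M/Z and 61.0 and 66.9 CPM in +/Z embryos. Its log2 fold change of -2.21 (SE 0.57, *edgeR* adjusted p = 0.035) ranged from -3.81 to -1.46 with 1 pool left out. *lhx1.S*, for a LIM homeodomain protein of the organiser, stood at 39.8 and 21.5 CPM in M/Z against 90.8 and 66.1 CPM in +/Z pools, with a log2 fold change of -1.36 (0.33, adjusted p = 0.028). *foxa4.S*, a forkhead gene of the dorsal midline, stood at 148 and 107 CPM in M/Z and 247 CPM in both +/Z pools, a log2 fold change of -0.96 (0.23, adjusted p = 0.023). Of these 5 factors, 1 (*foxa4.S*) passed with the stage 10.5 libraries alone, 5 without M/Z replicate 1 and 1 (*otx2.S*) without M/Z replicate 2. Without +/Z replicate 1 *gsc.L*, *gsc.S* and *foxa4.S* passed, and without +/Z replicate 2 *lhx1.S* did. With library totals 3 of the 5 passed, with *DESeq2* in place of *edgeR* 4, and with the replicate number as a block 4.

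Secreted antagonists differed in both directions. Of 14 tested copies of BMP antagonists and *admp*, 3 were lower in M/Z (21.4%) and 2 higher (14.3%). Of all genes tested, 6.39% were lower and 6.68% higher. The median log2 fold change of the list was -1.72. The median difference from the +/Z mean was -0.76 in M/Z replicate 1 and -2.60 in replicate 2. All 14 copies were lower in replicate 2 than in replicate 1, against 49.1% of all genes tested. *nog.L*, which encodes the BMP-binding protein Noggin, stood at 1.87 and 1.14 CPM in M/Z and 7.76 and 10.9 CPM in +/Z embryos. It was lower by a log2 fold change of -2.62 (SE 0.44, *edgeR* adjusted p = 0.0051) and passed in all 6 fits.

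*cer1.S*, for Cerberus, which binds Nodal, BMP and Wnt ligands, stood at 142 and 24.4 CPM in M/Z and 432 and 404 CPM in +/Z embryos. The +/Z mean was 2.95 times the level of M/Z replicate 1 and 17.1 times that of replicate 2. The log2 fold change of -2.33 (SE 0.60, *edgeR* adjusted p = 0.033) ranged from -4.09 to -1.55 with 1 pool left out, and the call was lost without either +/Z replicate and with the stage 10.5 libraries alone. *nog.S* was also lower, at 1.18 and 0.431 CPM in M/Z against 3.02 and 3.36 CPM in +/Z embryos, and failed without M/Z replicate 2, without +/Z replicate 2 and with the stage 10.5 libraries alone.

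*chrd.L*, for Chordin, the main BMP antagonist of the organiser, did not pass. M/Z replicate 2 was lowest and, as for 27.1% of all genes tested, both M/Z pools lay below both +/Z pools. *chrd.L* stood at 98.8 and 13.3 CPM in M/Z against 245 and 257 CPM in +/Z pools. Its log2 fold change was -2.16 with a standard error of 0.68 (adjusted p = 0.063, *edgeR*). The M/Z pools were 7.40-fold apart and the +/Z pools close together. With 1 pool left out, the log2 fold change of *chrd.L* ranged from -4.23 to -1.33. A fit with 1 M/Z pool left out loses the gap between these pools, so its calls cannot serve as a separate test. The *admp* copies, which encode a BMP-like ligand of the organiser, also did not pass. *admp.L* stood at 21.2 and 4.1 CPM in M/Z and 51.3 and 42.1 CPM in +/Z embryos, and *admp.S* at 57.1 and 10.8 CPM against 109 and 116 CPM. With 1 pool left out, their log2 fold changes ranged from -3.50 to -1.13 and from -3.38 to -0.97. With the replicate number as a block in the fit, *chrd.L* and *admp.L* were called lower and *admp.S* was not.

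The antagonists that were higher in M/Z are not confined to the organiser. *grem1.L*, for the BMP antagonist Gremlin, stood at 17.6 and 15.1 CPM in M/Z against 5.43 and 6.58 CPM in +/Z pools, for a log2 ratio of 1.44 (SE 0.23, *edgeR* adjusted p = 0.0037) that passed in all 6 fits. *twsg1.L*, for Twisted gastrulation, a modulator of Chordin and BMP, was at 59.5 and 48.5 CPM against 37.8 and 30.8 CPM and failed without M/Z replicate 1, without +/Z replicate 2 and with the stage 10.5 libraries alone. For both genes the M/Z pools lay close together.

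Among 16 tested copies of Wnt antagonists, 4 were lower in M/Z (*cer1.S*, *frzb.S*, *notum.S* and *sfrp2.S*) and 1 was higher (*sfrp1.L*). These were 25% and 6.25% of the list, beside 6.39% and 6.68% of all genes tested. The median log2 fold change was -0.68. *frzb.S*, for a secreted Frizzled-related protein of the organiser, was lower, at 191 and 100 CPM in M/Z against 270 and 356 CPM in +/Z embryos. It failed without M/Z replicate 2, without +/Z replicate 2, with library totals and with the stage 10.5 libraries alone, and its log2 fold change of -1.11 moved between -1.64 and -0.70. *notum.S*, for an enzyme that inactivates Wnt proteins, was even between the M/Z pools, at 16.4 and 16.9 CPM against 43.5 and 43.9 CPM in +/Z embryos. Its log2 fold change of -1.39 (SE 0.19, *edgeR* adjusted p = 0.0021) passed in all 6 fits. *sfrp1.L*, for another Frizzled-related protein, stood at 4.15 and 4.01 CPM in M/Z and 0.535 and 0.635 CPM in +/Z embryos, and its log2 fold change of 2.80 (0.50, adjusted p = 0.0066) passed in all 6 fits too. The head inducer *dkk1.S* was at 17.4 and 4.78 CPM against 23.3 and 38.3 CPM and did not pass. It was called lower with *DESeq2* in place of *edgeR*.

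**Figure D3:**
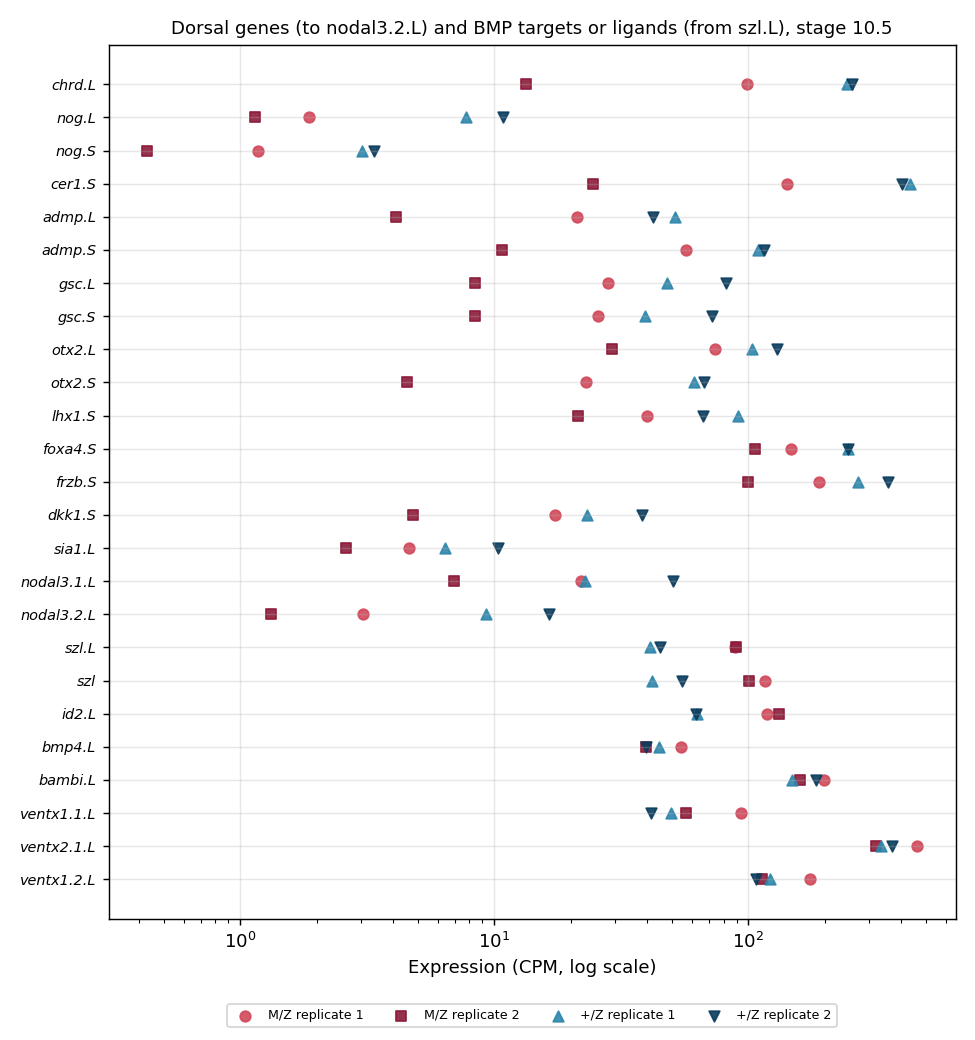
Expression of 25 dorsal genes and BMP targets or ligands at stage 10.5 in CPM on a log axis, with 1 point per library (red circles and dark red squares for M/Z replicates 1 and 2, light and dark blue triangles for +/Z replicates 1 and 2). From *chrd.L* to *nodal3.2.L* M/Z replicate 2 is the lowest point, for example 24.4 CPM for *cer1.S* against 404 and 432 CPM in +/Z embryos. Both M/Z points lie above both +/Z points for *szl.L*, *szl* and *id2.L*. The genes plotted were picked and are not whole lists. Over the 52 tested copies of organiser factors, BMP antagonists and Wnt antagonists, M/Z replicate 2 was lowest for 34 (65.4%) and highest for 4.

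Nodal ligands activate the pathway that induces mesoderm and endoderm, and Lefty proteins are their feedback inhibitors. Of 19 tested copies of Nodal ligands, Lefty and co-receptors, 3 were lower in M/Z (15.8%, beside 6.39% of all genes) and 0 higher. The list had a median log2 fold change of -0.25. *lefty.S* had 2 and 0 counts in the M/Z pools and 341 and 267 in the +/Z pools, a ratio of 423 (95% counting interval 117 to 3500). It passed in all 6 fits. At stage 9 *lefty.S* was at 0 CPM in both M/Z pools and at 1.03 and 0.802 CPM in the +/Z pools. *lefty.L* stood at 72.6 and 42.0 CPM in M/Z and 62.1 and 65.0 CPM in +/Z embryos, so the genotypes overlapped. The loss of counts thus concerned 1 of the 2 homeologs.

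*nodal3.2.L*, a target of maternal β-catenin, stood at 3.06 and 1.33 CPM in M/Z and 9.29 and 16.5 CPM in +/Z embryos. Its log2 fold change of -2.55 (SE 0.42, *edgeR* adjusted p = 0.0048) passed in all 6 fits. The entry *nodal3.1.L*, which may share reads with *nodal3.2.L*, was at 21.9 and 6.93 CPM against 22.8 and 50.5 CPM and did not pass. *nodal1.L* was at 8.76 and 6.87 CPM against 13.1 and 18.9 CPM and was lower, but failed without M/Z replicate 2, without +/Z replicate 2, with library totals and with the stage 10.5 libraries alone. The β-catenin target *sia1.L*, for the homeodomain activator of organiser genes, was at 4.64 and 2.62 CPM against 6.38 and 10.3 CPM and did not pass. With *DESeq2* in place of *edgeR*, *sia1.L* and *nodal3.1.L* were called lower.

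On the ventral side, *sizzled* and *id2* entries were higher in M/Z embryos. Of 26 tested copies of BMP ligands and ventral feedback genes, 5 were higher (*szl*, *szl.L*, *id2.L*, *id2.S* and *bmp7.2.S*) and 1 lower (*bmp7.2.L*), and 3 of the 5 passed in all 6 fits. Of the list, 19.2% was higher and 3.85% lower, beside 6.68% and 6.39% of all genes tested. The median log2 fold change was 0.20. Over the whole list, the median difference from the +/Z mean was 0.38 in M/Z replicate 1 and -0.05 in replicate 2, and 19 of the 26 copies were lower in replicate 2. *szl.L*, for Sizzled, a secreted inhibitor of the proteases that cleave Chordin, stood at 88.5 and 89.2 CPM in M/Z and 41.1 and 45.0 CPM in +/Z embryos. The entry *szl*, which has no homeolog suffix and may share reads with it, was at 117 and 101 CPM against 42.0 and 54.9 CPM. *id2.L*, for an inhibitor of helix-loop-helix factors induced by BMP, was at 119 and 133 CPM against 62.9 and 62.2 CPM. The log2 fold changes of these 3 entries were 1.04, 1.17 and 1.01 (standard errors 0.17, 0.21 and 0.15), with adjusted p = 0.0050, 0.0068 and 0.0028 in *edgeR*.

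Among the BMP ligands, *bmp4.L* stood at 54.5 and 39.4 CPM in M/Z and 44.6 and 39.6 CPM in +/Z embryos, and did not pass. The 2 *bmp7.2* copies went in opposite directions. *bmp7.2.L* was at 792 and 547 CPM against 1107 and 1183 CPM and *bmp7.2.S*, the minor copy, at 13.9 and 22.0 CPM against 6.57 and 8.89 CPM. Both calls were lost without M/Z replicate 2 and with the stage 10.5 libraries alone, that of *bmp7.2.L* also without +/Z replicate 2 and that of *bmp7.2.S* without +/Z replicate 1.

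The ventral transcription factors did not follow the feedback genes. Of 31 tested copies, 1 passed, the Sp-family gene *sp5.S*, which was lower in M/Z at 0.115 and 0.0308 CPM against 0.841 and 1.22 CPM, and failed without M/Z replicate 2, without +/Z replicate 2 and with the stage 10.5 libraries alone. The value of *sp5.S* in M/Z replicate 2 lay below a floor of 3 counts (0.0924 CPM). The median difference from the +/Z mean was 0.19 in M/Z replicate 1 and -0.82 in replicate 2, so the list stood on different sides of the +/Z mean in the M/Z pools. All 31 copies were lower in replicate 2 than in replicate 1, against 49.1% of all genes tested. The median log2 difference (replicate 1 minus replicate 2) was 1.06 between the M/Z pools. It was 0.54, in the same direction, between the +/Z pools. The share that passed was 3.23%, beside 13.1% of all genes. *ventx1.1.L*, a homeobox target of BMP, stood at 94.1 and 57.0 CPM in M/Z and 49.8 and 41.6 CPM in +/Z embryos. *ventx2.1.L* was at 462 and 320 CPM against 333 and 370 CPM. Neither passed, but *ventx1.1.L* was called higher with library totals.

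Of 48 tested mesoderm copies, 4 were lower in M/Z (*t.L*, *t2.S*, *hoxd1.S* and *vegt.S*) and 2 higher (*tbx6.S* and *hey1.S*), with a median log2 fold change of -0.44. These shares, 8.33% lower and 4.17% higher, were near the 6.39% and 6.68% of all genes tested. *t.L* stood at 56.4 and 22.7 CPM in M/Z and 199 and 111 CPM in +/Z embryos, and its log2 fold change of -1.97 (SE 0.43, *edgeR* adjusted p = 0.018) ranged from -2.77 to -1.45 with 1 pool left out. *t.S*, the more highly counted copy, was at 326 and 171 CPM against 457 and 317 CPM and did not pass. It was called lower with the replicate number as a block. None of the 4 lower genes passed without M/Z replicate 2 or without +/Z replicate 1. *tbx6.S*, a T-box gene of the paraxial mesoderm, passed in all 6 fits in the other direction, at 4.93 and 5.49 CPM against 1.18 and 0.227 CPM. It was present at 9.30 and 10.1 CPM in M/Z embryos already at stage 9, where the +/Z pools had 0.0322 and 0 CPM.

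In the endoderm list 35 copies were tested, 9 of which were lower in M/Z (25.7%, beside 6.39% of all genes) and 2 higher, with a median log2 fold change of -0.72. The list's median difference from the +/Z mean was -0.46 in M/Z replicate 1 and -1.21 in replicate 2. *gata5.S*, a zinc finger gene of the early endoderm, stood at 6.83 and 3.08 CPM in M/Z against 22.3 and 18.3 CPM in +/Z pools, for a log2 ratio of -2.03 (SE 0.39, *edgeR* adjusted p = 0.010). *gata5.L*, the higher copy, was at 36.2 and 8.85 CPM against 70.6 and 72.0 CPM and did not pass. It was called lower with the replicate number as a block. *mixer.S*, for a homeodomain protein that acts above *sox17*, was at 166 and 118 CPM against 294 and 283 CPM and was lower, but failed without M/Z replicate 2. *gata5.S* and the nuclear receptor gene *hnf4g.L* were the lower genes that passed in all 6 fits, and 7 of the 9 passed with library totals.

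*hnf4g.L* was nearly absent from M/Z embryos. It had counts of 14 and 15 in M/Z pools and 1322 and 1496 in +/Z pools, a log2 fold change of -7.08 (SE 0.35, *edgeR* adjusted p = 9.9e-06). The gap was already there at stage 9, at 0.358 and 0.310 CPM in M/Z against 44.8 and 70.2 CPM in +/Z pools. The endoderm factor gene *sox7.L* differed in the other direction, at 13.5 and 38.2 CPM in M/Z and 3.36 and 2.63 CPM in +/Z embryos. It fell during development, from 60.6 and 74.6 CPM in the +/Z pools at stage 9, and M/Z replicate 2 retained more of it than replicate 1. Its log2 fold change of 3.1 (0.43, adjusted p = 0.0021) passed in all 6 fits.

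Neural and epidermal genes passed in smaller shares, 5.36% and 6.90%, than the 13.1% of all genes tested. Of 56 tested neural plate copies, 3 were lower in M/Z (*zic1.L*, *foxd4l1.1.S* and *neurog3.S*) and 0 higher. *zic1.L*, for a zinc finger factor of the neural plate, stood at 121 and 66.4 CPM in M/Z and 223 and 184 CPM in +/Z embryos, and *foxd4l1.1.S* at 21.0 and 3.73 CPM against 58.7 and 49.5 CPM. Of 58 epidermal copies, *grhl1.S* and *cdh1.L* were higher and the keratin genes *krt18.L* and *krt18.S* lower. *grhl1.S*, for a grainyhead factor of the epidermis, was at 129 and 108 CPM against 68.0 and 43.4 CPM and failed only without +/Z replicate 2. None of these 7 genes passed in all 6 fits. With the stage 10.5 libraries alone *cdh1.L* and *grhl1.S* passed and the other 5 did not. *zic1.L* failed without M/Z replicate 2 and without +/Z replicate 1. *foxd4l1.1.S* failed without either +/Z pool, and *neurog3.S* without M/Z replicate 1 and without +/Z replicate 1. *cdh1.L* and both *krt18* copies failed without M/Z replicate 2 and without +/Z replicate 2.

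Wnt11b is known for its part in convergent extension, the cell movement that narrows and lengthens the axis. Of 88 tested copies of gastrulation movement genes, M/Z pools had 5 higher and 3 lower. The share that passed, 9.09%, was below the 13.1% of all genes tested. *sdc4.S*, for the proteoglycan Syndecan 4, which takes part in non-canonical Wnt signalling, stood at 54.7 and 54.9 CPM in M/Z and 26.4 and 23.1 CPM in +/Z embryos. Its log2 fold change of 1.15 (SE 0.18, *edgeR* adjusted p = 0.0033) passed in all 6 fits. The other non-canonical genes that were higher were *wnt5a.L*, *wnt5a.S*, *dvl1.L* and *ryk.S*, for a Wnt5a ligand, Dishevelled and a Wnt receptor, and none of these 4 passed with the stage 10.5 libraries alone or without M/Z replicate 2. *cdh2.S*, for N-cadherin, was lower at 0.548 and 0.216 CPM against 5.04 and 2.00 CPM, and failed without M/Z replicate 2 and without +/Z replicate 1. *efnb2.L* and *myh9.L*, for an ephrin and a non-muscle myosin heavy chain, were lower too, with the same losses and also with library totals and with the stage 10.5 libraries alone.

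**Figure D4:**
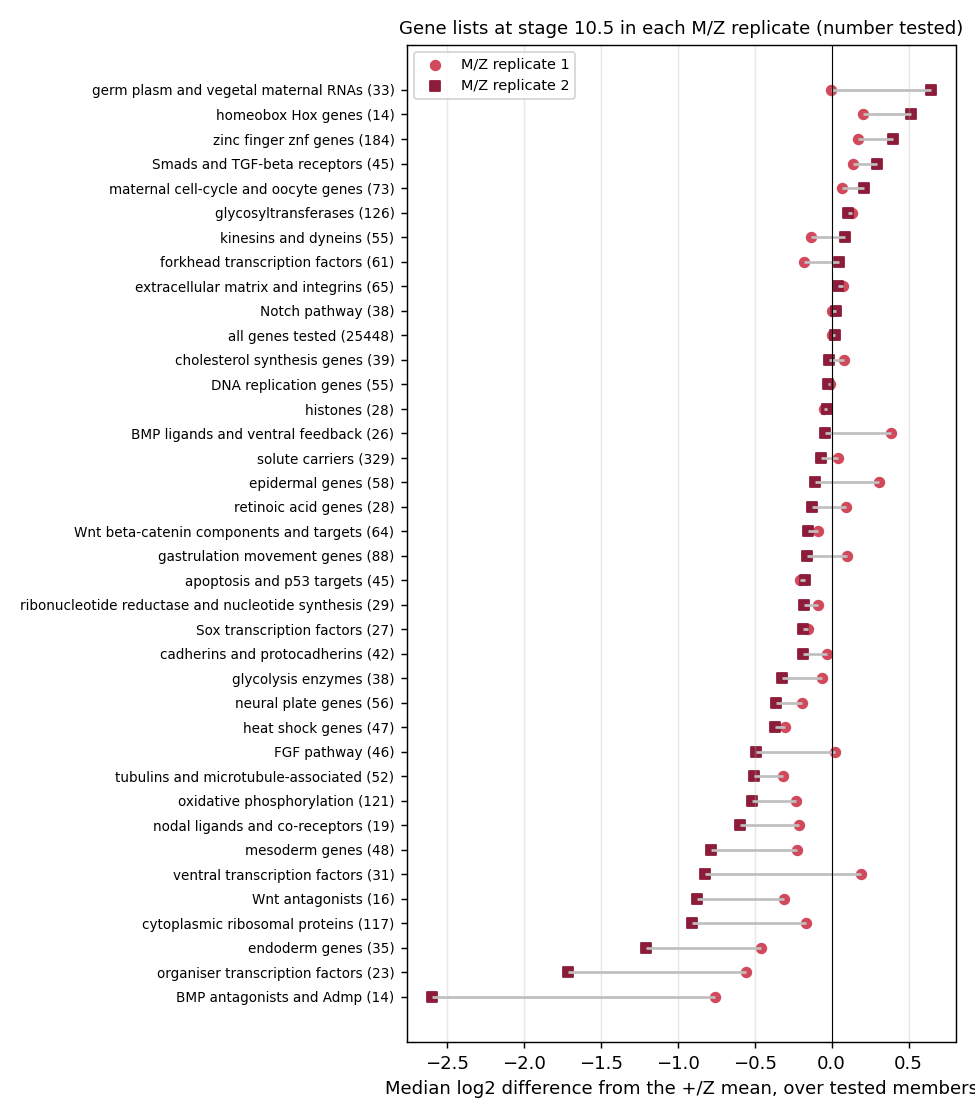
Median log2 difference of each M/Z replicate from the mean of the +/Z replicates over the tested members of each gene list (number tested in brackets), with a circle for M/Z replicate 1, a square for replicate 2 and a grey line between them. The lists of BMP antagonists (-0.76 and -2.60), organiser transcription factors (-0.56 and -1.71) and ribosomal proteins (-0.17 and -0.91) have replicate 2 far below replicate 1, and the germ plasm list has it above (-0.01 and 0.64).

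RNAs of the germ plasm and the vegetal egg were mostly highest in M/Z replicate 2. Of 33 tested copies of germ plasm and vegetal maternal RNAs, 4 were higher and 3 lower in M/Z. The share that passed in either direction was 21.2%, beside 13.1% of all genes tested. M/Z replicate 2 was the highest of the 4 pools for 24 of the 33 copies (72.7%), against 32.1% of all genes tested. *pgat.L*, for a component of the germ plasm, stood at 138 and 192 CPM in M/Z and 61.5 and 80.9 CPM in +/Z embryos and passed in all 6 fits. *nanos1.L*, for a translational repressor of germ cells, was higher at 36.2 and 38.6 CPM against 13.3 and 23.1 CPM, but failed without M/Z replicate 2, without +/Z replicate 1 and with the stage 10.5 libraries alone. *ddx4.L*, for the Vasa helicase of germ cells, was lower, at 95 and 92.4 CPM against 161 and 174 CPM, and passed in 5 of the 6 fits, not with the stage 10.5 libraries alone.

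The list of maternal cell-cycle and oocyte genes had 73 tested copies, with 9 higher and 9 lower in M/Z. Each was 12.3% of the list, beside 6.68% and 6.39% of all genes tested. The list had no such order of the M/Z pools, since 36 of the 73 copies were lower in replicate 2 than in replicate 1. *ccna1.L*, for the embryonic cyclin A1, stood at 106 and 355 CPM in M/Z and 42.3 and 60.6 CPM in +/Z embryos, after 810 and 893 CPM in the +/Z pools at stage 9. Its log2 fold change of 2.17 (SE 0.44, *edgeR* adjusted p = 0.013) ranged from 1.06 to 2.80 with 1 pool left out. *ccna1.S* was at 61.4 and 186 CPM against 23.2 and 29.6 CPM, and both copies passed in all 6 fits. *ccnb3.L*, for cyclin B3, was lower at 79.7 and 53.7 CPM against 159 and 144 CPM, after 18.6 and 17.3 CPM in the +/Z pools at stage 9, and also passed in all 6 fits. For *ccna1.L*, *ccna1.S* and *ccnb3.L*, M/Z replicate 2 was the farther from +/Z. They were picked from the copies that passed and do not stand for the other cyclins of the list.

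Other maternal genes were even between the M/Z pools. *zar1l.L*, for an RNA-binding protein of the oocyte, stood at 37.2 and 38.4 CPM in M/Z and 9.32 and 17.6 CPM in +/Z embryos. *zp3.S*, for an egg coat glycoprotein, was at 69.5 and 57.1 CPM against 28.4 and 24.7 CPM. Both passed in all 6 fits. The egg coat genes *zp2.L*, *zp4.L* and *zp4.S* were lower instead, and none of them passed without M/Z replicate 2 or with the stage 10.5 libraries alone.

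Several chaperone genes were lower in both M/Z pools. Of 47 tested copies in the heat shock list, 9 were lower in M/Z and 1 higher, and 6 of the 9 passed in all 6 fits. Both directions together, 60% of the list's calls passed in all 6 fits, beside 30.7% for all genes that passed. All 9 lower copies had M/Z pools within 1.5-fold of each other, against 76.1% of all genes that were lower in M/Z. Their median log2 difference from the +/Z mean was -0.86 in M/Z replicate 1 and -1.08 in replicate 2. The median over the whole list was -0.31. Of the list, 19.1% was lower and 2.13% higher, beside 6.39% and 6.68% of all genes tested. With library totals 7 of the 9 passed.

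The chaperone of the endoplasmic reticulum BiP was represented by *hspa5* and *hspa5.S*. *hspa5* stood at 56.9 and 57.8 CPM in M/Z and 113 and 133 CPM in +/Z embryos, and *hspa5.S* at 122.9 and 142 CPM against 289 and 319 CPM. Their log2 fold changes were -1.10 and -1.20 (standard error 0.15 each, adjusted p = 0.0019 and 0.0011, *edgeR*). *hsp90b1.L*, for another chaperone of the same compartment, was at 580 and 512 CPM against 969 and 1142 CPM, a log2 fold change of -0.95 (0.15, adjusted p = 0.0042). The cytosolic *hspa8.S* was among the most abundant of these genes, at 1492 and 1035 CPM against 2813 and 2622 CPM, a log2 fold change of -1.10 (0.19, adjusted p = 0.0065). *hspb1.S*, for a small heat shock protein, was at 0.721 and 1.05 CPM against 5.69 and 8.80 CPM, a log2 fold change of -3.03 (0.39, adjusted p = 0.0013).

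*hsp90aa1.1.L*, for a cytosolic Hsp90, stood at 7.64 and 7.06 CPM in M/Z against 21.5 and 22.2 CPM in +/Z pools, for a log2 ratio of -1.57 (SE 0.28, *edgeR* adjusted p = 0.0063). At stage 9 it had been higher in M/Z, at 4.58 and 3.60 CPM against 0.677 and 1.15 CPM. The genotype difference differed between the stages for 12 of all genes tested (0.0472%), this one among them. The co-chaperone genes *dnaja1.L*, *dnaja2.L* and *st13.L* were lower at stage 10.5 but did not pass with the stage 10.5 libraries alone. *dnaja2.L* passed in none of the fits with 1 pool left out, and *st13.L* only without +/Z replicate 1. *dnajb9.L*, a co-chaperone of BiP, was the member that was higher, at 28.2 and 43.0 CPM against 15.9 and 19.5 CPM, and it failed without M/Z replicate 2, without +/Z replicate 1 and with the stage 10.5 libraries alone.

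Genes of nucleotide synthesis were next examined. Of 29 tested copies, 6 were lower and 3 higher in M/Z. Of these 9, 4 (44.4%) passed in all 6 fits, beside 30.7% for all genes that passed. The lower and higher copies made up 20.7% and 10.3% of the list, beside 6.39% and 6.68% of all genes tested. Ribonucleotide reductase makes the building blocks of DNA and consists of a large subunit (Rrm1) and a small one (Rrm2). *rrm2.1.L* stood at 6.63 and 8.51 CPM in M/Z and 343 and 415 CPM in +/Z embryos, 50.1-fold lower (log2 fold change -5.65, standard error 0.27, adjusted p = 9.9e-06, *edgeR*). *rrm2.2.L*, a second gene for the small subunit, was higher at 236 and 330 CPM against 100 and 127 CPM, a log2 fold change of 1.32 (0.20, adjusted p = 0.0031). Both large-subunit copies were lower, *rrm1.L* at 109 and 110 CPM against 180 and 179 CPM and *rrm1.S* at 49.0 and 45.0 CPM against 121 and 118 CPM. *impdh2.L*, for the enzyme that commits purines to guanine nucleotides, was at 48.2 and 40.4 CPM against 178 and 176 CPM, a log2 fold change of -2.0 (0.16, adjusted p = 9.4e-05). In this group *rrm2.1.L*, *rrm2.2.L*, *rrm1.S* and *impdh2.L* passed in all 6 fits, and *rrm1.L* failed with the stage 10.5 libraries alone.

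Of 55 DNA replication copies, 6 were lower and 3 higher, and the share that passed, 16.4%, was near the 13.1% of all genes tested. *mcm6.L* and *mcm7.S*, for subunits of the replicative helicase, were at 159 and 157 CPM against 280 and 302 CPM and at 213 and 212 CPM against 411 and 442 CPM, whereas *mcm9.L*, for a related helicase, was higher at 16.7 and 25.4 CPM against 6.04 and 4.45 CPM. These 3 passed in all 6 fits. Of 39 cholesterol synthesis and handling copies, 3 were lower and 1 higher, and the share that passed, 10.3%, was below the 13.1% of all genes. *soat1.L*, for the enzyme that esterifies cholesterol for storage, was at 2.19 and 1.88 CPM against 47.2 and 40.2 CPM, 21.4-fold lower (log2 fold change -4.42, standard error 0.23, adjusted p = 1.2e-05, *edgeR*).

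Of 38 glycolysis copies, 3 were lower (7.89%, near the 6.39% of all genes tested) and 0 higher. *hk2.S*, for hexokinase 2, stood at 6.83 and 8.2 CPM in M/Z against 31.6 and 29.4 CPM in +/Z pools, for a log2 ratio of -2.02 (SE 0.28, *edgeR* adjusted p = 0.0021). The entry *pgk1*, for phosphoglycerate kinase, was at 0.259 and 0.0308 CPM against 8.71 and 10.7 CPM. Its value in M/Z replicate 2 lay below the floor of 3 counts (0.0924 CPM). Another tested entry of the same gene, *pgk1.L*, did not pass, and the division of reads between the entries is uncertain. *hk2.S* and the entry *pgk1* passed in all 6 fits, and *ldhb.S*, the third lower gene, did not pass with the stage 10.5 libraries alone.

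**Figure D5:**
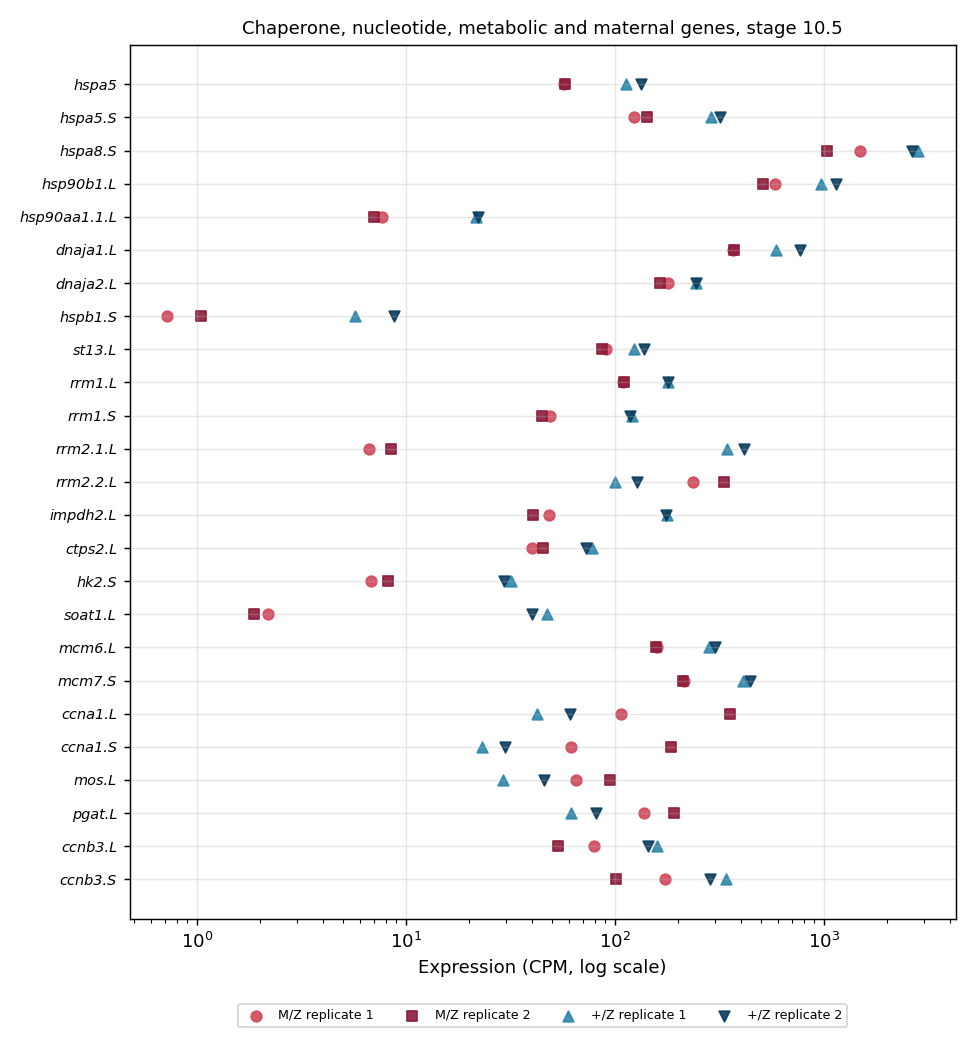
Expression of 25 chaperone, nucleotide, metabolic and maternal genes at stage 10.5 in CPM on a log axis, with 1 point per library as in the plot of dorsal genes. The M/Z points nearly coincide for some genes, for example 56.9 and 57.8 CPM for *hspa5*, and lie farther apart for the cyclin genes *ccna1.L* and *ccna1.S*, for example 106 and 355 CPM for *ccna1.L*.

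Ribosomal protein genes were nearly all lowest in M/Z replicate 2. Of 117 tested copies, 5 were lower in M/Z and 0 higher, fewer than the 13.1% of all genes that passed, and 0 of these 5 passed in all 6 fits or without M/Z replicate 2. The median difference from the +/Z mean was -0.17 in M/Z replicate 1 and -0.91 in replicate 2, and 112 of the 117 copies (95.7%) were lowest in M/Z replicate 2. The +/Z replicates themselves differed on this list, by a median log2 of -0.44 (replicate 1 minus replicate 2). *rps20.S* stood at 79.2 and 39.7 CPM in M/Z and 109 and 155 CPM in +/Z embryos, and 1 of the 5 passed with library totals. The 121 tested copies of oxidative phosphorylation had medians of -0.23 and -0.52, with 4 lower and 1 higher (4.13% together, against 13.1% of all genes). Of these, *ndufa10.L*, for a subunit of complex I, passed in all 6 fits, at 4.27 and 3.42 CPM against 10.7 and 15.0 CPM.

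Zinc finger genes with *znf* symbols were more often higher in M/Z than lower. Of 184 tested copies, 25 were higher in M/Z (13.6%, beside 6.68% of all genes) and 6 lower, with a median log2 fold change of 0.26, and the list's median difference from the +/Z mean was 0.17 in M/Z replicate 1 and 0.40 in replicate 2. Without M/Z replicate 2, 6 of the 25 passed, and without +/Z replicate 2 also 6. Tubulin and microtubule genes had 9 lower and 3 higher of 52 tested (17.3% and 5.77%, beside 6.39% and 6.68% of all genes). Of the 12, *tubal3.S* passed in all 6 fits, with 115 and 119 counts in M/Z and 0 in both +/Z pools, at least 27.8-fold higher against a floor of 3 counts per library. Of 55 kinesin and dynein copies, 3 were higher and 3 lower, and the share that passed, 10.9%, was below the 13.1% of all genes. Among them *kif19.S* was lower in all 6 fits, at 1.59 and 1.26 CPM against 12.8 and 9.12 CPM.

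Solute carriers, the largest family examined, had 329 tested copies, 27 of them higher and 34 lower in M/Z pools. Of these 61, 17 (27.9%) passed in all 6 fits, near the 30.7% for all genes that passed. The share of the family that passed was 18.5%, beside 13.1% of all genes tested. *slc1a1.L*, for a glutamate transporter, had counts of 1866 and 1656 in M/Z pools and 2 and 0 in +/Z pools. *slc6a9.L*, for a glycine transporter, was higher at 18.8 and 22.0 CPM against 4.13 and 4.17 CPM, and *slc26a6.L*, for an anion exchanger, lower at 23.6 and 22.7 CPM against 83.9 and 105 CPM. The homeologs of the nucleotide-sugar transporter family gene *slc35a4* differed in opposite directions. *slc35a4.L* stood at 7.81 and 12 CPM in M/Z and 1.18 and 2.45 CPM in +/Z embryos, and *slc35a4.S* at 8.97 and 10.7 CPM against 44.7 and 55.3 CPM. Their log2 fold changes of 2.46 (standard error 0.38, adjusted p = 0.0035) and -2.35 (0.21, adjusted p = 0.00019) passed in all 6 *edgeR* fits.

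Opposite directions were the less frequent case among homeologs. In 4568 gene pairs both copies were tested, and at least 1 copy passed in 992 pairs. Both passed in 126 pairs, in the same direction in 93 and in opposite directions in 33. When the counts of homeologs were summed before the fit, 2639 of 20848 entries passed.

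Smaller lists gave isolated calls. In the FGF list *fgf13.S*, for an intracellular FGF-like protein, was higher in all 6 fits, at 10.1 and 14.2 CPM in M/Z against 1.3 and 1.54 CPM in +/Z embryos. *egr1.L*, for an immediate early target of FGF signalling, was lower at 5.02 and 1.76 CPM against 19.9 and 11.2 CPM, and failed without M/Z replicate 2, without +/Z replicate 1 and with the stage 10.5 libraries alone. In the retinoic acid list *rdh13.L* and *rdh14.L*, for retinol dehydrogenases, were higher in all 6 fits, at 8.53 and 12 CPM against 2.18 and 2.45 CPM and at 23.4 and 22.1 CPM against 9.02 and 7.62 CPM. In the same list 2 copies were lower, of which 0 passed in all 6 fits. Among apoptosis and p53 targets 6 copies were lower (13.3%, beside 6.39% of all genes tested), of which 0 passed in all 6 fits. The 1 higher copy of that list was *cdkn1b.S*, for a cyclin-dependent kinase inhibitor. It was higher in all 6 fits, at 9.77 and 11.7 CPM against 3.63 and 2.86 CPM. Among matrix and adhesion genes *fbn2.L*, for fibrillin 2, was higher at 16.1 and 20.2 CPM against 4.16 and 3.27 CPM, and *dsg2.S*, for a desmoglein, lower at 12.9 and 6.1 CPM against 50.1 and 39.0 CPM, both in all 6 fits.

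The genes with a symbol that had the smallest p-values and no overlap of pools were examined next. Many of them were nearly on or off between the genotypes, but *rpap1.L* and *lin7c.2.L* were expressed in both. The 10 highest-ranked genes that were higher in M/Z included *amh.S*, *itih4.S*, *slc1a1.L*, *ghr.S* and *il5ra.L*. *amh.S*, for anti-Müllerian hormone, stood at 45.9 and 43.7 CPM in M/Z and 0.535 and 0.499 CPM in +/Z embryos, 85.9-fold higher (log2 fold change 6.42, standard error 0.26, adjusted p = 8.2e-06, *edgeR*). *il5ra.L*, for an interleukin receptor subunit, had counts of 6292 and 6513 in M/Z pools and 48 and 99 in +/Z pools. *itih4.S*, for a secreted heavy chain of the inter-alpha-trypsin inhibitor family in mammals, had 1665 and 1299 counts against 7 and 2. *ghr.S*, for the growth hormone receptor, had 519 and 532 counts against 2 and 1. The M/Z pools were alike for each of these genes. At stage 9 the log2 fold changes of *amh.S*, *slc1a1.L*, *rrm2.1.L* and *soat1.L* were already 8.19, 10.5, -5.96 and -4.91.

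The remaining 5 of these 10 genes were *rpap1.L*, *ugt3a2.L*, *vrk1.L*, *dhrs7b.S* and *ltk.S*. *rpap1.L*, for a protein associated with RNA polymerase II, was expressed in both genotypes, at 247 and 226 CPM in M/Z and 31.4 and 27.2 CPM in +/Z embryos. *vrk1.L*, for a nuclear kinase, was at 87.6 and 69.7 CPM against 3.97 and 4.76 CPM. *ugt3a2.L*, for a glycosyltransferase, had counts of 935 and 951 in M/Z and 0 in both +/Z pools, at least 224-fold higher against the floor of 3 counts per library. *dhrs7b.S*, for a dehydrogenase, had counts of 293 and 320 in M/Z and likewise 0 in both +/Z pools.

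The highest-ranked genes that were lower in M/Z included *rrm2.1.L*, *hnf4g.L*, *soat1.L*, *col5a2.S*, *myot.L*, *lin7c.2.L*, *thop1.L*, *pm20d2.S* and *pkd2l1.L*. *col5a2.S*, for a fibrillar collagen chain, had counts of 17 and 11 in M/Z against 1909 and 1629 in +/Z pools. *thop1.L*, for a peptidase, was at 1.73 and 0.894 CPM against 54.8 and 59.2 CPM, and *lin7c.2.L*, for a scaffold protein, at 5.45 and 6.47 CPM against 69.9 and 65.8 CPM. The M/Z pools were farther apart for *pkd2l1.L*, with counts of 5 and 13 against 840 and 618 in +/Z pools. All genes named in this and the preceding 2 paragraphs passed in all 6 fits. They were chosen for small p-values and for pools that did not overlap, so their agreement among the fits follows in part from that choice.

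Genes with no more than 3 counts in either pool of 1 genotype and at least 100 in both pools of the other numbered 24 for +/Z and 19 for M/Z as the near-absent side. Besides those above, Xetrov90010127m.L had counts of 2584 and 2151 in M/Z and 0 in both +/Z pools, at least 561-fold higher. In the other direction LOC108711240 had 4219 and 2060 counts in +/Z and 0 in both M/Z pools, at least 1423-fold lower, and LOC108702948 had 1275 and 994 against 0 and 0, at least 524-fold lower. *myot.L*, for a protein of the muscle Z-disc, had 988 and 1198 counts in +/Z and 1 and 0 in M/Z embryos. A low count can also come from reads assigned to a near-identical entry, which was not tested.

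The distance between the M/Z pools differed among the lists. The 52 tested copies of organiser factors, BMP antagonists and Wnt antagonists had a median absolute log2 difference of 0.92 between M/Z replicates, and 25 of them (48.1%) were more than 2-fold apart, against 15.0% of all genes tested. This was not particular to dorsal genes, since the ventral transcription factors had a median log2 difference of 1.06 (replicate 1 minus replicate 2), beside 0.86 for the 52 copies. Between the +/Z replicates the same signed median was 0.54 for the ventral transcription factors and -0.0054 for the 52 copies. Over all 47 tested copies of the heat shock list the signed median between the M/Z replicates was 0.05. Such a median does not give the size of the gaps. Over all genes tested it was -0.01, with a median absolute difference of 0.372.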

How the data were processed

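RNA of 8 pools of 3 whole embryos was sequenced as paired-end reads, in 4 groups of 2 pools. Per the labels, a stranded mRNA kit and a single lane were used. The authors mapped reads to *X. laevis* genome version 9.2 with *bowtie2* and quantified them with *RSEM* (version 1.3.0 in the submitters' processing notes). They deposited expected counts for 49086 genes, not normalised, which were rounded to whole numbers before the fit. The authors' own strand setting for quantification is not given in the sources used here. LOC identifiers received symbols from a RefSeq table of another assembly, from which no coordinates were taken.

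Counts were analysed with *edgeR* 4.0.16 in R 4.3.3 (TMM, filterByExpr, glmQLFit and glmQLFTest, Benjamini-Hochberg adjustment, threshold 0.05) over 8 libraries in 4 groups, which leaves 4 residual degrees of freedom. The script was tested on simulated data. With 2 pools against 2, no exact test can pass the threshold, so none was run. CPM use TMM-scaled library sizes. Standard errors were back-calculated as the absolute log2 fold change divided by the square root of the quasi-likelihood F statistic, so they are approximate. A floor of 3 counts corresponded to 0.0864 to 0.136 CPM at stage 10.5. Bounds and intervals (exact, 95%) cover counting error only. Replicate libraries differed by more than sampling noise (chi-square over its degrees of freedom 49.4 for M/Z and 41.4 for +/Z) and were kept apart.

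Progress was the slope, over the 500 genes with the largest change in one +/Z replicate, of the difference between an M/Z pool and the other +/Z replicate on that change, added to 100%. Gene lists were written by symbol. The members of the lists and the genes named were chosen with earlier results of these data known. Named genes are *wnt11b.L*, the 10 genes with a symbol and the smallest p in each direction that passed in the 8-library fit and with the stage 10.5 libraries alone without overlap, list members, the 3 most abundant near-absent genes each way and the 5 genes with the largest M/Z replicate ratio each way. A gene that this rule selects is not reported here. The alternatives tried were RLE size factors, library totals, other filters, *DESeq2* 1.42.0, the stage 10.5 libraries alone, a replicate block, summed homeologs, a minimum 2-fold change and leaving out each pool. No sequences or coordinates were used.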

Additional observations from a re-analysis of the deposited data

Results flagged for a closer look

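An interaction of genotype and stage passed in *edgeR* for 12 of 25448 genes (0.0472%), of which 2 are named above. *vrk1.L* was higher in M/Z embryos at both stages, with log2 fold changes of 1.66 (stage 9) and 4.17 (stage 10.5) (adjusted p of the difference 0.034, *edgeR*). It went from 18.0 and 21.3 CPM to 3.97 and 4.76 CPM in the +/Z pools and from 52.8 and 71.3 CPM to 87.6 and 69.7 CPM in the M/Z pools. *hsp90aa1.1.L* was higher in M/Z at stage 9 (log2 fold change 2.18) and lower at stage 10.5 (-1.57), with adjusted p = 0.020 for the difference. It rose from 0.677 and 1.15 CPM to 21.5 and 22.2 CPM in the +/Z pools and from 4.58 and 3.60 CPM to 7.64 and 7.06 CPM in the M/Z pools.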

How the results depend on the processing

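The number of genes that differed was 3325 and stayed within 1.5 times that value with RLE size factors (3342), library totals (3768), a minimum of 10 counts in every library (2271), *DESeq2* (4297) and summed homeologs (2639). It was 5494 without the filter, 1218 with the stage 10.5 libraries alone and 789 with a minimum 2-fold change. Leaving out 1 pool gave 1520 to 5227, and 1442 (43.4%) of the 3325 genes passed without M/Z replicate 2. Whether pools with the same replicate number shared a clutch or a female is not given in the sources used here, so pools were treated as unpaired. With the replicate number as a block 3134 genes passed, 2927 of them shared. The differences between replicates 1 and 2 at stage 10.5 had a correlation of 0.0049 between the genotypes across genes. Of 137 named genes 116 passed, and 0 of these changed direction in any alternative in which the single copy was tested. Single copies were not followed with summed homeologs, and the minimum of 10 counts kept 89 of the 116. Among these 116, 102 passed with library totals, 114 with *DESeq2*, 74 with the stage 10.5 libraries alone, 77 without M/Z replicate 2 and 42 with the minimum 2-fold change. Direction changed for 6 genes that had not passed. With 1 pool left out their log2 fold changes ranged from -0.32 to 2.17 (*btg3.S*), -1.02 to 1.12 (*foxi1.S*), -0.50 to 0.21 (*mixer.L*), -0.59 to 0.20 (*lefty.L*), -0.087 to 0.38 (*bmp4.L*) and -0.13 to 0.41 (*ventx2.1.L*), and with library totals they were 0.073 for *mixer.L* and 0.033 for *lefty.L*. Progress of M/Z replicate 1 was 93.9% with the axis from +/Z replicate 2 (93.9% on rising and 96.1% on falling genes, 93.1% over 200 and 94.6% over 1000 genes). Progress of M/Z replicate 2 was 71.9% on falling genes with the first axis, and 75.1% with the second (75.6% on rising and 69.0% on falling genes, 76.2% over 200 and 74.8% over 1000 genes). The causes were not tested. With 2 pools a genotype and no known clutches, precision is limited by pools rather than by depth.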
